A study of Mus musculus with 18 samples.

Results

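The genes of the mitochondrial respiratory chain were followed across sorted cells of mouse mammary tumors and normal mammary gland. Members were taken by symbol from the probe annotation of the array: symbols that start with Ndufa, Ndufb, Ndufc, Ndufs or Ndufv (complex I), Sdha to Sdhd (complex II), Uqcr and Cyc1 (complex III), Cox4 to Cox8 (complex IV) and Atp5 (complex V), with assembly factors (Ndufaf) and pseudogenes (-ps) left out. This gave 83 of the 18193 genes on the array, 36 in complex I, 4 in complex II, 9 in complex III, 17 in complex IV and 17 in complex V. Of these, 76 passed the filter on low signal and were tested among 10916 genes. The other 7, Cox4i2, Cox6b2, Cox7a1, Cox7b2, Cox8b, Ndufa4l2 and Ndufb4, are given as levels only. The rule uses gene symbols alone.

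Cells of 3 tumors, numbered 1, 2 and 7, had been sorted with antibodies to CD29, an integrin, and CD24, a cell surface glycoprotein, into 4 populations each: CD29H CD24H, CD29H CD24L, CD29L CD24H and CD29L CD24L, where H is high and L is low. Tumors 1 and 2 are labelled as first transplantation generation, and the labels give none for tumor 7. Normal mammary epithelial cells came as CD29H CD24P and CD29P CD24H (P is positive) from preparations 1 and 2, and as CD24L from preparation 2 only. A purchased reference RNA filled the last of the 18 arrays. The labels give no strain, genotype, age or number of animals for any group, so every p-value measures the spread between these samples. Each population of each tumor is 1 array, and the small number of arrays limits the precision of every difference.

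Mitochondrial ATP is made by electrons that pass from NADH through complex I, or from succinate through complex II, to complex III and then by cytochrome c to complex IV, which reduces oxygen. Complexes I, III and IV pump protons across the inner membrane, and complex V, the ATP synthase, uses their return. Nearly all subunits are encoded in the nucleus and imported, and their promoters are known for sites of the factors NRF1, GABP (an ETS factor), YY1 and ERR alpha. A core of complexes I, III, IV and V is encoded by mitochondrial DNA. On this array only ND5, a core subunit of complex I, represented that genome.

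The 150 bases before the start of transcription are shown for 6 members on which the results below turn: the members with the largest tumor-to-normal differences in complexes III, I and II (Uqcrh, Ndufa7 and Sdhb) and the ATP synthase genes whose CD24 difference depended on the CD29 gate (Atp5l, Atp5e and Atp5g2). Sequences are RefSeq's for GRCm38.p6, written 5′ to 3′ along the gene's strand. Capitals mark the letters of any of 4 motifs: GCGCATGC for NRF1, CCGGAAG for ETS factors, AAGATGGC for YY1 and AAGGTCA for ERR alpha, each searched on both strands.

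Uqcrh (chr4:116075071-116075220, minus strand): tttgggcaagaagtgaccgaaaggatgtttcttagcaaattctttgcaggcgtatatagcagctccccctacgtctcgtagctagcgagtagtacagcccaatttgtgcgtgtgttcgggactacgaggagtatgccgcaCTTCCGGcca

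Atp5l (chr9:44920743-44920892, minus strand): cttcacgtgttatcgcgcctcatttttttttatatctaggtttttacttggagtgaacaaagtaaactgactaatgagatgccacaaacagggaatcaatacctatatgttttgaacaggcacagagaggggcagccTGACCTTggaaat

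Atp5e (chr2:174464102-174464251, minus strand): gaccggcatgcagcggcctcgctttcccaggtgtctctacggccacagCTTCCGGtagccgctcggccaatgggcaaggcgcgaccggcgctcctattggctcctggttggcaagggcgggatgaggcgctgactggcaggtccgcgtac

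Atp5g2 (chr15:102671048-102671197, minus strand): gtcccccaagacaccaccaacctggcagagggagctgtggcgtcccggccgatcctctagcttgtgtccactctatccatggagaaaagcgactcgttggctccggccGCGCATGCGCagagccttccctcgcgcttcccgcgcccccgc

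Ndufa7 (chr17:33824422-33824571, plus strand): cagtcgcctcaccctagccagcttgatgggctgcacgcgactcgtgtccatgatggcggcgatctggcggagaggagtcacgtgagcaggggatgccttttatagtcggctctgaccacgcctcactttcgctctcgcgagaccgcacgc

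Sdhb (chr4:140961121-140961270, plus strand): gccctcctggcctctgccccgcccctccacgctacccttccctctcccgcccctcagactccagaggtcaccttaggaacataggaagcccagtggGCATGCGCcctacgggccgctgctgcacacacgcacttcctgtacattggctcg

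The printed Uqcrh and Atp5e stretches each hold the ETS letters on the reverse strand. Atp5l holds the ERR alpha letters on the reverse strand, and Sdhb the NRF1 letters on the reverse strand. In Atp5g2 the NRF1 letters of both strands overlap as a palindrome. The printed Ndufa7 stretch holds none of the 4, which says only that these letters are not in this window. Windows ran from 250 bases before to 50 bases after the start and were matched by gene identifier for 67 of the 83 members. Of these, 33 members (49.3%) held at least 1 motif. The share was 19.7% of all 27025 genes with such windows and 31.4% of the 8818 matched genes that passed the signal filter. The NRF1 letters were in 9 members (13.4%), against 3.05% of all genes with windows and 6.18% of the matched genes that passed the filter. The ETS letters were in 17 (25.4%), against 9.93% and 20.3%. YY1 letters were in 9 (13.4%), against 3.19% and 5.35%, and in 7 of these 9 they lay on the gene's strand just after the start. ERR alpha letters were in 8 (11.9%), against 5.38% and 3.66%. These are matches of letters, not measured binding.

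Array quality differed between the groups. Signal at the 3′ end of the actin transcript over that at its 5′ end, a measure that grows as RNA is more degraded or more of the signal comes from its 3′ end, was 49.6 to 99.3 on 10 of the 12 tumor arrays. On the CD29H CD24H and CD29L CD24L arrays of tumor 2 it was 23.2 and 14.4. The 4 normal epithelial arrays had 3.08, 6.33, 7.09 and 24.7. The normal CD24L array had high fibroblast markers (a summed signal of 228600 over 8 of 8 genes, against 9135 to 12264 on the other normal arrays) and low epithelial markers (1777 over 6 of 6 genes, against 44088 to 157310), which goes against its label as epithelial cells. It was left out of the tumor-to-normal comparison and is described on its own. No tumor population was left out in the same way. The tumor CD29H CD24L arrays, with fibroblast sums of 156080 to 195050, stayed in the tumor means. That comparison therefore sets tumor means that include a population with high fibroblast markers against normal epithelial populations alone. The effect of this was not tested.

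Some respiratory chain transcripts were lower in tumor cells than in normal mammary epithelial cells, and they belonged to complexes I, II, III and V. Of the 76 members, 8 passed limma's test at an adjusted p under 0.05 and all 8 fell (10.5%, against 2.97% of all genes tested called lower and 7.32% called in either direction). No member was called higher, against 4.35% of all genes. The fall was 5.61-fold for Uqcrh, 3.79-fold for Atp5g1, 3.39-fold for Atp5l, 3.37-fold for Ndufa7, 3.08-fold for Uqcr11, 2.83-fold for Ndufa6, 2.69-fold for Atp5o and 2.31-fold for Sdhb. The median member difference, tumor minus normal, was −0.60 on the log2 scale with 60 of 76 below 0, while the median over all genes was 0.04. The test set the means of the 3 tumors against the means of the 2 normal preparations. All levels and differences here are log2 of the signal plus 32, which understates changes of weak signals, and levels of different genes are not compared. In sorted cells, fewer cells of a type and less RNA per cell cannot be told apart.

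**Figure D1:**
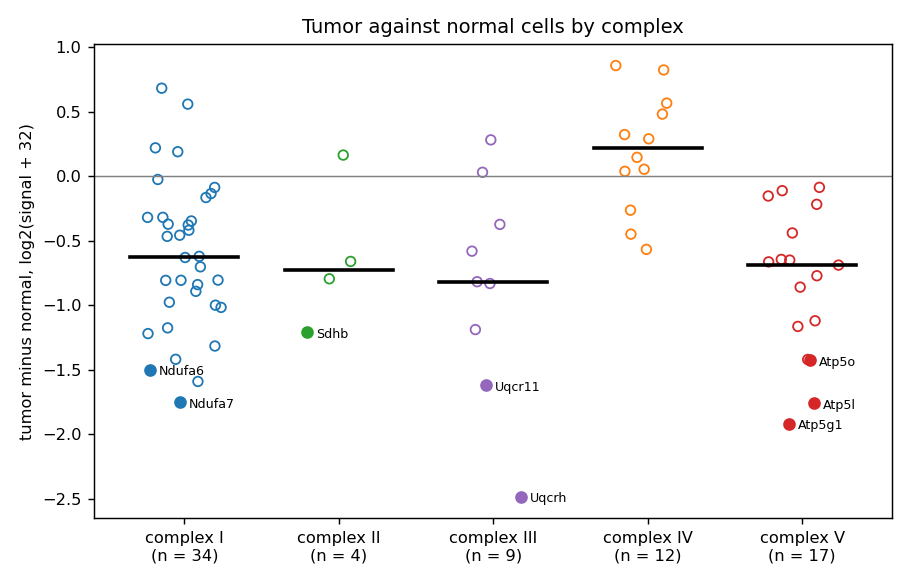
Difference between tumor and normal cells for the 76 tested members, by complex. Each circle is a gene (y axis, mean of 3 tumors minus mean of 2 normal preparations, log2 of signal plus 32), filled where the adjusted p is under 0.05, and the bars are medians; all 17 complex V genes lie below 0, and 9 of 12 complex IV genes lie above it (6 of 12 with arrays set to the same median, and 3 of 11 with the mean of each gene's probe sets).

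Complex III held the largest difference. Uqcrh encodes the acidic hinge protein that helps cytochrome c1 meet cytochrome c. Its log2 level was 11.43 and 12.43 on the normal CD29H CD24P arrays and 11.43 and 11.58 on the CD29P CD24H arrays, while the 12 tumor arrays ran from 7.93 through a median of 8.73 to 11.31. No tumor array reached the normal range, and the difference was −2.49 ± 0.45 (SE; 3 tumors and 2 preparations; limma adjusted p = 0.0254). The 2 highest tumor values, 11.15 and 11.31, were on the 2 tumor arrays with the lowest actin ratios; the other 10 lay between 7.93 and 10.10. The other Uqcrh probe set differed by −1.87. Uqcr11, a small membrane subunit of the same complex, had 11.56, 11.86, 12.35 and 12.03 on the normal arrays and 8.58, 10.42 and 12.27 as lowest, median and highest of the tumor arrays. A single tumor array, CD29L CD24L of tumor 2, reached into the normal range, and the difference was −1.62 ± 0.36 (limma adjusted p = 0.0433). Of the 9 complex III members 7 were below 0, with a median of −0.82. Uqcrc1, a core protein of the complex, had −1.19 ± 0.33 (limma adjusted p = 0.0741), and Cyc1, cytochrome c1, had 0.03. Uqcrb, a small subunit near the ubiquinone site, had 0.28 on its brightest probe set and −2.12 on the other.

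All 17 ATP synthase members were below 0 on their brightest probe sets, with a median of −0.69 and 3 called. So they were with arrays set to the same median or quantile normalised. With the actin ratio as a covariate 6 of the 17 were above 0 and the median was −0.44. Atp5g1 is among the 3 nuclear genes for subunit c, which forms the rotating proton ring. It had 10.74, 11.05, 10.64 and 10.99 on the normal arrays and 7.16, 9.09 and 10.56 as lowest, median and highest of the tumor arrays, without overlap (−1.92 ± 0.42, limma adjusted p = 0.0409; −0.97 when averaged with its other probe set, which lay below the filter). Of its paralogs for the same mature protein, Atp5g2 had −1.16 ± 0.45 (limma adjusted p = 0.156) and Atp5g3 −0.15 ± 0.18. Atp5l encodes subunit g of the membrane part. It had 10.34, 10.74, 9.63 and 10.30 on the normal arrays and 6.97, 8.24 and 10.76 as lowest, median and highest of the tumor arrays. Its highest tumor value, on the CD29L CD24L array of tumor 2, lay above every normal array, and the next was 9.40 (−1.76 ± 0.29, limma adjusted p = 0.0201). Atp5o, the stalk protein that confers oligomycin sensitivity, had 11.71, 12.13, 11.54 and 11.56 on the normal arrays against 9.50, 10.07 and 11.08 on the tumor arrays, again without overlap (−1.43 ± 0.28, limma adjusted p = 0.0309). The catalytic subunits Atp5a1 and Atp5b were not called, at −0.22 ± 0.31 and −0.44 ± 0.23.

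In complex I, 30 of 34 members were below 0, with a median of −0.63, and the 2 that passed the test were accessory subunits. Ndufa7 had 10.62 and 10.86 on the normal CD29H CD24P arrays and 12.43 and 11.59 on the CD29P CD24H arrays, against 8.41, 9.69 and 11.30 as lowest, median and highest of the tumor arrays (−1.75 ± 0.28, limma adjusted p = 0.0188). The CD29L CD24L array of tumor 2 overlapped the normal values, and the next tumor value was 10.35. All 5 Ndufa7 probe sets gave a difference of the same sign, −1.23 to −1.75. Ndufa6 had 10.76, 10.91, 10.26 and 10.86 on the normal arrays and 8.12, 9.13 and 10.38 on the tumor arrays, with the CD29L CD24L array of tumor 2 alone in the normal range (−1.50 ± 0.32, limma adjusted p = 0.0399). Core subunits were not called: Ndufv1, which holds the flavin, had −0.84 ± 0.29, Ndufs8, which holds iron-sulfur clusters, −1.02 ± 0.29 and Ndufs3 −0.98 ± 0.28. ND5, the core subunit encoded in mitochondrial DNA, had −0.88 ± 0.36 (limma adjusted p = 0.171).

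Complex II feeds electrons from the citrate cycle and has no mitochondrially encoded part. Sdhb, its iron-sulfur subunit, had the tightest normal values of the called members, 12.23, 12.16, 12.18 and 12.11, against 10.04, 10.97 and 11.45 as lowest, median and highest of the tumor arrays. The groups did not overlap, and the difference was −1.21 ± 0.27 (limma adjusted p = 0.0444). Sdha, the flavoprotein that oxidises succinate, had tumor values of 10.80 to 11.85 and normal values of 11.97 to 12.19 (−0.80 ± 0.32, limma adjusted p = 0.163). The membrane anchors Sdhc and Sdhd were not called, at −0.66 ± 0.46 and 0.16 ± 0.30.

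Complex IV, cytochrome c oxidase, had a median of 0.22 with 9 of 12 members above 0 and none called; with quantile normalisation these were 0.11 and 7, and with arrays set to the same median 0.0073 and 6. With the mean of each gene's probe sets the median turned to −0.20 with 3 of 11 above 0, so the direction of complex IV depended on the probe set. Cox6c and Cox7c, small structural subunits, had 0.86 ± 0.36 (limma adjusted p = 0.186) and 0.82 ± 0.27 (limma adjusted p = 0.104) on their brightest sets, and −0.67 and 0.60 on their others. The brightest and next sets also differed in sign for Cox6a1 (0.04 and −0.67), Cox6b1 (0.29 and −0.69) and Cox8a (0.57 and −1.83). Of 9 complex IV members with more than 1 probe set above the filter, 6 had sets of both signs; over all members it was 17 of 43, with 7 of 19 in complex I, 0 of 3 in II, 2 of 4 in III and 2 of 8 in V. Cox4i1, a regulatory subunit that binds ATP, had −0.45 ± 0.27 from a single set. That complex IV differs from the others was not tested.

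In 10 of the 76 members (13.2%, against 3.34% of all genes tested) every one of the 12 tumor arrays lay below all 4 normal arrays. They were Atp5c1 (the rotor shaft of the ATP synthase), Atp5g1, Atp5o, Ndufa8, Ndufb5, Ndufs5, Ndufs8, Sdha, Sdhb and Uqcrh. This holds for the brightest probe set of each. Atp5c1 differed by −1.121 on that set and by 1.115 on its other set, which also lay above the filter. The reverse was found in 0 of the 76 tested members, against 4.27% of all genes tested.

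**Figure D2:**
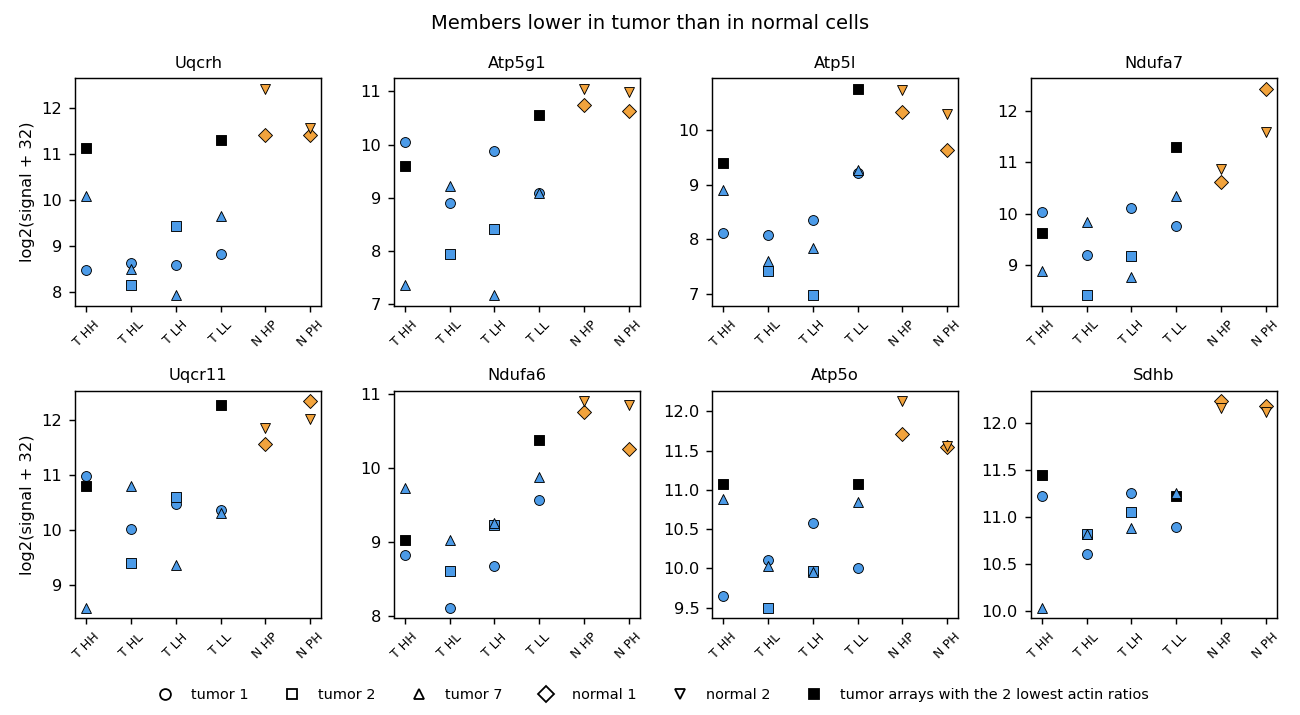
Log2 of signal plus 32 on each of 12 tumor and 4 normal arrays for the 8 members that were called, with symbols for the tumor or preparation. T HH to T LL are the tumor populations by CD29 and then CD24, N HP and N PH the normal CD29H CD24P and CD29P CD24H cells; black squares are the 2 tumor arrays with the lowest actin ratios, which held the 2 highest tumor values of Uqcrh, Atp5l and Atp5o.

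The tumor-to-normal count changed when samples were left out and when the actin ratio entered the fit. With the actin ratio as a covariate, 0 of 76 members and 0% of all genes were called, and the median member difference was −0.50. Uqcrh then had −0.67 (limma adjusted p = 0.939) and Ndufa7 −2.15 (limma adjusted p = 0.901). That fit rests on 3 tumor and 2 preparation means. The ratio was 24.7 or less on the 4 normal epithelial arrays and 49.6 or more on 10 of the 12 tumor arrays. RNA quality and group therefore cannot be told apart here, and the loss of calls does not separate them. Over all 33 alternatives of each, the adjusted p ran from 0.00985 to 0.939 for Uqcrh and from 0.0145 to 0.901 for Ndufa7. The 2 tumor arrays with the lowest actin ratios alone had a median member difference of −0.28 to normal, and without them it was −0.62 with 11 called. The count was 1 without tumor 1 and 15 without tumor 7. Without either normal preparation a single preparation mean is left, so no count is given for that. Leaving out single arrays gave 5, 2 and 4 calls without CD29H CD24L of tumors 1, 2 and 7, and 5 without CD29L CD24L of tumor 7. It gave 2 and 3 without CD29H CD24P of preparations 1 and 2, and 2 without CD29P CD24H of preparation 2. The median member difference stayed between −0.64 and −0.53 in all of these. Arrays set to the same median rather than left as deposited gave 15 calls and medians of −0.81 for members and −0.17 for all genes.

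Markers of other cells differed between the same groups. Over 8 of 9 macrophage markers the summed signal was 4225 to 41132 on the tumor arrays and 728 to 1816 on the 4 normal epithelial arrays. Over 8 of 8 fibroblast markers it was 9899 to 195050 and 9135 to 12264, and over 6 of 6 epithelial markers 16813 to 131900 and 44088 to 157310. The fibroblast sum on the normal epithelial arrays was mostly Dcn (log2 12.89 to 13.13). Col1a1, Col1a2, Col3a1 and Dpt were higher on every tumor array than on every normal epithelial array. Dcn, Lum, Pdgfra and Pdgfrb overlapped. The summed signal of adipocyte markers (4 of 5 genes) ran from 791 to 8407 and from 66.3 to 98.4. That of endothelial markers (5 of 5) ran from 272 to 2291 and from 99.7 to 255. The macrophage, adipocyte and endothelial ranges did not overlap between tumor and normal epithelial arrays. The adipocyte difference came from Fabp4 alone (log2 9.58 to 13.04 on tumor and 5.92 to 6.81 on normal epithelial arrays). Adipoq, Cidec and Lep had low signal on both, 5.07 to 6.69. No marker was at 0 on any array. The part of these cells in the differences was not tested.

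**Figure D3:**
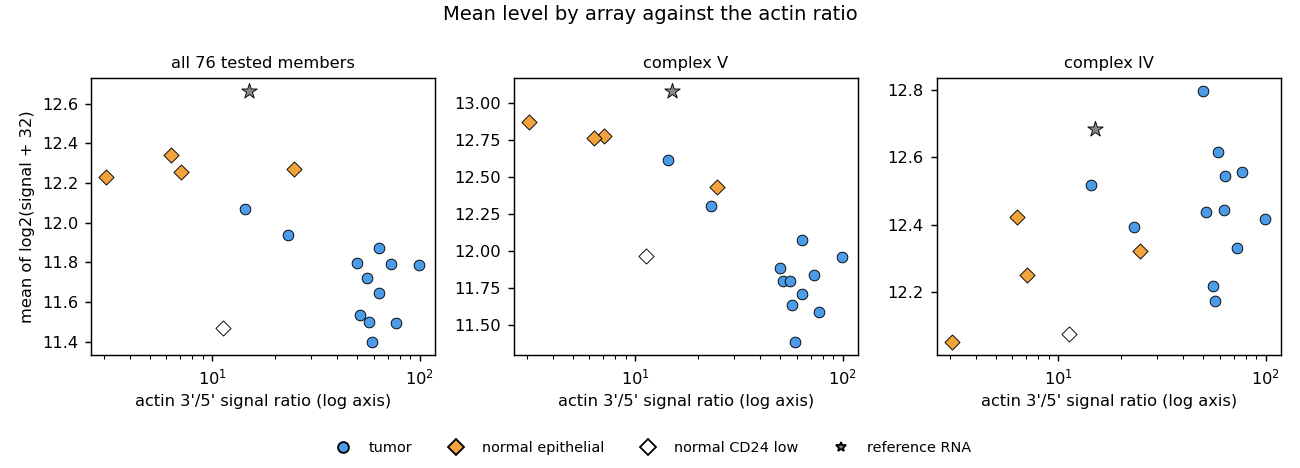
Mean log2 of signal plus 32 over the 76 tested members, the complex V members and the complex IV members on each array (y axis) against the actin 3′ to 5′ signal ratio (x axis, log scale). The 10 tumor arrays farthest right have ratios of 49.6 to 99.3; the other 2, at 14.4 and 23.2, have the highest member means among the tumor arrays, 12.07 and 11.94.

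Other mitochondrial lists were set beside the chain, and in this comparison 2.97% of all genes were called lower and 4.35% higher. Of 74 mitochondrial ribosome genes 63 were below 0 in tumor cells (median −0.46), with 1 called, Mrps16, a small-subunit protein (−1.44 ± 0.32, limma adjusted p = 0.0454), a share below that of all genes. Of 41 assembly factors 27 were below 0 (median −0.22) and 2 fell: Uqcc2, which assembles complex III (−1.42 ± 0.30, limma adjusted p = 0.0364), and Cox19, which serves copper delivery to complex IV (−1.21 ± 0.27, limma adjusted p = 0.0451). The citrate cycle list of 18 had 16 below 0 (median −0.48), and its Idh3g and Idh2, both isocitrate dehydrogenases, fell by 1.45 and 1.32. Among 14 genes of electron carriers and their inputs (median −0.67) Coq3, an enzyme of ubiquinone synthesis, fell by 1.56. Among 11 genes of fatty acid oxidation (median −0.61) Echs1, the short-chain enoyl hydratase, fell by 1.67. Of 7 carrier and channel genes none was called. The median of 20 regulators of mitochondrial biogenesis was 0.03; Mterf3, known as a repressor of mitochondrial transcription, fell by 1.49, and Ppargc1a, the coactivator of biogenesis, had 1.46 ± 0.46 (limma adjusted p = 0.0963). Of 17 glycolysis genes 13 were above 0 (median 0.44) and Pgk1, phosphoglycerate kinase, rose by 0.87 ± 0.16 (limma adjusted p = 0.0249). The difference between lists was not tested.

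**Figure D4:**
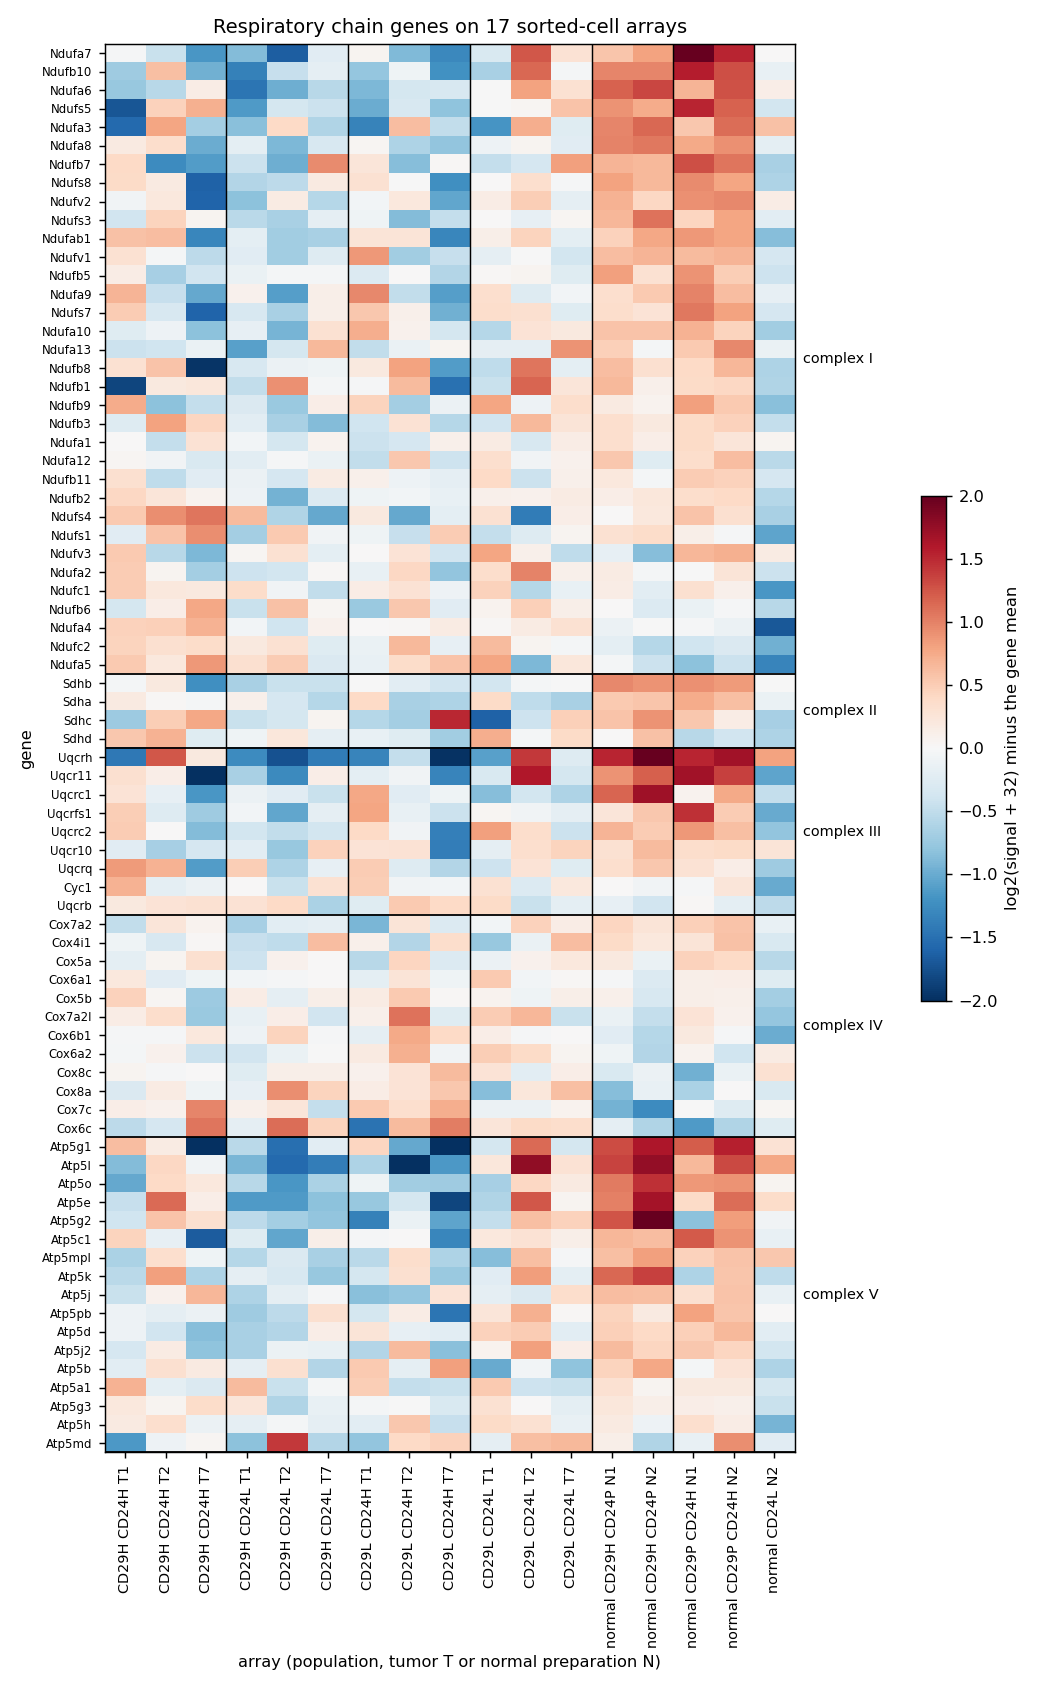
Log2 of signal plus 32 of the 76 tested members (rows, by complex) on the 17 sorted-cell arrays (columns), each row minus its own mean, with colours capped at 2 either way. The 4 normal CD29H CD24P and CD29P CD24H columns are high in most rows of complexes I, II, III and V; the normal CD24L column and most tumor columns are lower, and complex IV has no such block.

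The series' design text sets the 4 tumor populations side by side to find genes of tumor-initiating cells. For the respiratory chain, CD29H CD24H cells compared with the rest gave no call. Against the mean of the other 3 populations, 0 of 76 members and 0.0% of all genes passed limma's test without pairing. Of the members, 2 (2.63%, against 6.97% of all genes) had an unadjusted p under 0.05, and the median member difference was 0.05. With the tumor as a block, 0 members were called against 0.76% of all genes. An unadjusted p under 0.05 was then found for 5 members (6.58%, against 16.4% of all genes). Ndufs4, an accessory subunit needed to hold the NADH-oxidising module of complex I, had the smallest p. Its log2 levels in CD29H CD24H cells of tumors 1, 2 and 7 were 11.17, 11.58 and 11.73, in CD29H CD24L cells 11.28, 10.05 and 9.63, in CD29L CD24H cells 10.85, 9.63 and 10.45, and in CD29L CD24L cells 10.95, 9.26 and 10.78. CD29H CD24H was the highest population in tumors 2 and 7 and second in tumor 1. The difference was 1.17 ± 0.44 (n = 3 tumors; limma adjusted p = 0.573, and 0.0988 with the tumor as a block), and 0.42 when its 4 probe sets were averaged. Ndufa4, a subunit now assigned to complex IV, had 0.50 ± 0.22 (limma adjusted p = 0.697), and Atp5e, the epsilon subunit of the ATP synthase shaft, 0.87 ± 0.45 (limma adjusted p = 0.781). Atp5g2 and Ndufb3 had 0.61 ± 0.34 and 0.53 ± 0.33. Of 76 members 18 were higher in CD29H CD24H cells than in the mean of the others in all 3 tumors, and 5 lower; for all genes these shares were 20.1% and 19.3%.

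Against each population alone, 0 members were called as well. All genes gave 2.17% for CD29H CD24H against CD29H CD24L, 0.0% against CD29L CD24H and 0.0366% against CD29L CD24L. With the tumor as a block these shares were 5.08%, 0.00916% and 0.522%, and 0 members were called. The values that follow are without the block. Members with an unadjusted p under 0.05 numbered 6 (against 8.68% of all genes), 3 (against 2.6%) and 0 (against 6.19%). The smallest p belonged to Ndufa4 (0.66 ± 0.27, limma adjusted p = 0.460), Atp5g2 (1.01 ± 0.42) and Ndufs4 (1.16 ± 0.54). The member medians were 0.19, 0.06 and −0.13. The average CD29 difference called 0 members and 0.0% of all genes, with 2 members at an unadjusted p under 0.05 (against 6.43% of all genes): Ndufa6 (−0.61 ± 0.27) and Atp5d, the delta subunit of the ATP synthase shaft (−0.51 ± 0.24). The average CD24 difference called 0 members against 0.715% of all genes, with 1 at an unadjusted p under 0.05 (against 7.86%): Atp5b, the catalytic beta subunit (0.63 ± 0.26). With the tumor as a block the CD29 and CD24 averages each called 0 members, against 0.806% and 3.86% of all genes. Fibroblast markers were highest in CD29H CD24L cells (156080 to 195050, against 9899 to 88420 in the other tumor populations), and their part in these values was not tested.

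The CD24 difference of several ATP synthase genes went opposite ways in the CD29 gates. This interaction, the CD24 high minus low difference in CD29 high cells minus that in CD29 low cells, was called for 0 of 76 members and 0.0% of all genes without pairing, with 6 members (7.89%, against 5.93% of all genes) at an unadjusted p under 0.05. With the tumor as a block it was called for 3 members (3.95%, against 1.91% of all genes), all positive, where 0.183% of all genes were called positive. Over the 76 members the median interaction was 0.30 with 59 above 0, where the median of all genes was −0.03 with 48.2% above 0. It was above 0 in all 3 tumors for 24 members (15.3% of all genes) and below 0 in all 3 for 2 (18.4% of all genes). The complex medians were 0.58 for V, 0.34 for I, 0.29 for II, 0.23 for III and −0.10 for IV, which turned to 0.31 with the mean of each gene's probe sets. Mitochondrial ribosome genes had a median of 0.47 with 59 of 74 above 0.

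Atp5l had log2 levels of 8.12, 9.40 and 8.91 in CD29H CD24H cells of tumors 1, 2 and 7 and of 8.07, 7.42 and 7.60 in CD29H CD24L cells. In CD29L CD24H cells it had 8.36, 6.97 and 7.83, and in CD29L CD24L cells 9.21, 10.76 and 9.27. The CD24 high minus low difference was −0.85, −3.79 and −1.44 in the CD29 low gate of the 3 tumors and 0.06, 1.97 and 1.31 in the CD29 high gate, with tumor 1 close to 0 in the latter. The interaction was 3.14 ± 0.67 with the block (limma adjusted p = 0.0283) and 3.14 ± 0.72 without it (limma adjusted p = 0.179).

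Atp5e had 10.06, 11.66 and 10.65 in CD29H CD24H cells, 9.38, 9.38 and 9.70 in CD29H CD24L cells, 9.77, 10.17 and 8.68 in CD29L CD24H cells and 9.92, 11.76 and 10.57 in CD29L CD24L cells of tumors 1, 2 and 7. The signs were the same in all 3 tumors, with the least change in tumor 1. The interaction was 2.51 ± 0.56 with the block (limma adjusted p = 0.0344) and had an adjusted p of 0.382 in limma without it. Atp5g2 had 9.06, 10.03 and 9.78 in CD29H CD24H cells, 8.94, 8.78 and 8.66 in CD29H CD24L cells, 8.11, 9.32 and 8.40 in CD29L CD24H cells and 8.98, 10.06 and 9.92 in CD29L CD24L cells. Its interaction was 1.87 ± 0.45 with the block (limma adjusted p = 0.0463, and 0.421 without). Its other 2 probe sets, both below the signal filter, gave −0.47 and −0.46, and the mean of the 3 gave 0.31. Uqcrh had a large value that was not called, 2.76 ± 0.70 with the block (limma adjusted p = 0.0642), and 0.08, 4.88 and 3.31 in tumors 1, 2 and 7. Ndufa6 had 1.61, 1.56 and 1.32 in the 3 tumors, the most even of these genes, and 1.50 ± 0.41 with the block (limma adjusted p = 0.0850).

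**Figure D5:**
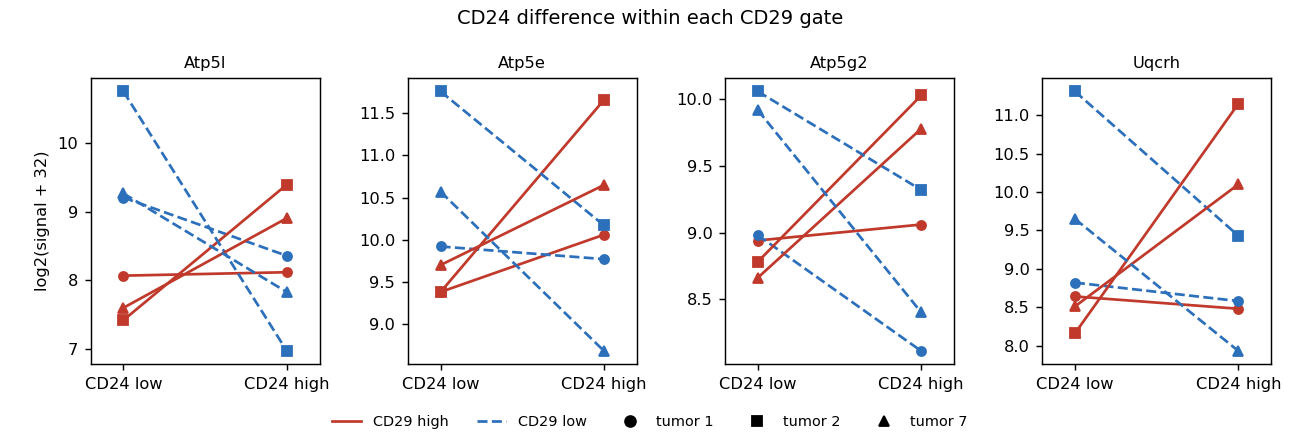
Log2 of signal plus 32 of Atp5l, Atp5e, Atp5g2 and Uqcrh in CD24 low and CD24 high cells (x axis), joined within each tumor, for CD29 high cells (solid red) and CD29 low cells (dashed blue). For Atp5l, Atp5e and Atp5g2 all 3 dashed lines fall and all 3 solid lines rise, by 0.06 to 2.29; for Uqcrh the solid line of tumor 1 falls by 0.15.

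These calls also changed when single arrays were left out and when the actin ratio entered the fit. The 2 tumor arrays with the lowest actin ratios, CD29H CD24H and CD29L CD24L of tumor 2, both enter the interaction with a plus sign. Without them the blocked test called 0 members, and the interaction was 1.83 for Atp5l, 1.83 for Atp5e and 1.82 for Atp5g2 (limma adjusted p = 0.365, 0.444 and 0.351). With the actin ratio as a covariate beside the block 1 member was called, Atp5l at 2.40 (limma adjusted p = 0.0359). The blocked count was 0 without any single array of tumor 2, 0 without CD29H CD24H of tumor 7, and 1 without CD29L CD24H or CD29L CD24L of tumor 7. It was 0 without tumor 2 or tumor 7 and 3 without tumor 1. Over the 12 tumor arrays, which share 3 tumors, the correlation of the log2 level with the actin ratio was −0.84 for Uqcrh, −0.77 for Atp5e, −0.62 for Atp5l and −0.60 for Atp5g2. It was below −0.5 for 12 of 76 members (15.8%) against 10.8% of all genes, and 6 of these 12 were ATP synthase genes. Summed lymphocyte and neutrophil markers were highest in CD29L CD24L cells. Over 6 of 7 lymphocyte genes the sum was 1279 to 6864, against 189 to 470 in the other tumor populations. Over 5 of 5 neutrophil genes it was 8281 to 35328 against 866 to 7776. Icos (log2 9.91 to 12.48), Cd3g and Ngp were higher on every CD29L CD24L array than on every other tumor array. S100a8 was 12.22 or more there and 12.22 or less elsewhere. Cd3e, Cd2, Cd79a, Cd79b, S100a9, Camp and Ltf overlapped. The macrophage sums also overlapped, with 9818 to 41132 in CD29L CD24L cells and up to 38776 in CD29L CD24H cells. The part of these cells in the interaction was not tested.

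Members differed in how much they varied among the tumor arrays. The SD over the 12 arrays was smallest for Cox6a1 (0.21), Cox8c (0.23), Ndufb5 (0.26), Ndufa1 (0.27) and Cox6b1 (0.27), and largest for Uqcrh (1.12), Atp5l (1.06), Atp5g1 (1.06), Uqcr11 (0.94) and Atp5e (0.91). Differences between tumors made up 33.8% of the variance of the median member and differences between populations 17.6%, where all genes had medians of 38.4% and 23.3%. Ndufa3, an accessory subunit, had 93.8% of its variance between tumors and Atp5a1, the alpha subunit of the ATP synthase, 92.7%, whereas Ndufa4 had 76.6% and Atp5l 70.9% between populations. As a description over the same 12 arrays, 33 of 76 members (43.4%) correlated above 0.5 with the mean of the other members, against 12.3% of all genes with the member mean. This held for 12 of 17 complex V members and 3 of 12 complex IV members.

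In normal cells the CD29H CD24P population carried the basal markers (summed signal 115430 to 120450 over 7 of 7 genes, against 2189 to 2567 in CD29P CD24H cells) and the CD29P CD24H population the luminal ones (77904 to 87567 over 7 of 8 genes, against 9914 to 11204). Between them 6 members were called by limma (7.89%, against 27.3% of all genes), 3 higher and 3 lower in CD29H CD24P cells (13.3% and 14.0% of all genes). Atp5g2 had 10.71 and 11.70 in CD29H CD24P cells of preparations 1 and 2 and 8.64 and 10.29 in CD29P CD24H cells, a difference of 1.74 ± 0.51 (n = 2 each; limma adjusted p = 0.0324), which was 0.32 and not called with the mean of its probe sets (limma adjusted p = 0.375). Atp5k, subunit e of the membrane part, had 13.30 and 13.52 against 11.54 and 12.71 (1.29 ± 0.34, limma adjusted p = 0.0220). Uqcrc1 had 12.02 and 12.54 against 10.92 and 11.61 (1.01 ± 0.30, limma adjusted p = 0.0330). None of the 3 overlapped between the populations, a pattern shown in this direction by 14 members (18.4%) and 31.1% of all genes.

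Ndufa7, with 10.62 and 10.86 against 12.43 and 11.59, was lower in CD29H CD24P cells by −1.27 ± 0.31 (limma adjusted p = 0.0135), and its 5 probe sets gave −1.27 to −1.71. Ndufv3, an accessory subunit of the NADH-oxidising module, had 11.39 and 10.71 against 12.23 and 12.28 (−1.20 ± 0.27, limma adjusted p = 0.0103). Cox7c had 8.33 and 8.01 against 9.26 and 9.01 (−0.96 ± 0.27, limma adjusted p = 0.0256). These too did not overlap, as in 25 members (32.9%) and 33.3% of all genes in this direction. With the preparation as a block 9 members were called (11.8%, against 29.1% of all genes), and Cox6b1, Ndufb9 and Cox7a2l joined the lower ones. Leaving out an array leaves a single array in its population, and the spread then comes from the other population alone. Counts from those fits are therefore not used here to judge the calls. The actin ratio was 24.7 on the CD29P CD24H array of preparation 1, above the other 3, and with the ratio as a covariate 1 member was called. The count was 3 without the signal filter and 0 when all 17 sorted arrays shared the fit.

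Of 20 regulators 1 was higher, a share below the 13.3% of all genes, and 3 were lower, a share near the 14.0% of all genes. Ppargc1b, a coactivator of mitochondrial genes, was the one higher in CD29H CD24P cells (1.54 ± 0.27, limma adjusted p = 0.00230). Esrrg, an ERR family receptor, was lower (−2.99 ± 0.29, limma adjusted p = 6.7e-05), as were Tfb1m (−1.20) and Nrf1 (−0.84). Of 17 glycolysis genes 6 were higher, a share above the 13.3% of all genes, among them Ldhb (1.46 ± 0.24). The 2 that were lower, a share near the 14.0% of all genes, included Aldoc (−2.70 ± 0.25). The difference in shares was not tested.

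Several complex IV subunits and Ndufa4 have paralogs with restricted expression in other tissues, and most of these lay below the signal filter. Cox4i1, the common form of subunit 4, had 13.42 to 14.80 over tumor and 14.38 to 14.76 over normal epithelial arrays, whereas Cox4i2, known from lung, had 5.11 to 6.89 in tumors. Cox7a1, the heart and muscle form, had 7.18 and 7.41 on the normal CD29P CD24H arrays, 5.13 and 5.88 on the CD29H CD24P arrays and 5.23 to 7.06 on the tumor arrays. Cox6b2, known from testis, had 7.14 and 7.42 on the CD29H CD24P arrays and 6.88 and 5.70 on the CD29P CD24H arrays. Ndufa4l2, known as induced by hypoxia, had 5.30 to 5.69 on the 4 normal epithelial arrays, 5.94 to 8.10 on the tumor arrays and 8.31 on the normal CD24L array. Every tumor array was above every normal epithelial one for Ndufa4l2, a pattern that 4.27% of all tested genes showed. Cox8b and Cox7b2 had low signal throughout. So had the single probe set that names Ndufb4 alone, while 2 sets shared with Ndufb4b and Ndufb4c were not used, so the level of that gene is not given by it. None of these was tested.

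The normal CD24L array had a member mean of 11.47, against 12.23 to 12.34 on the other 4 normal arrays and 11.40 to 12.07 on the tumor arrays. It lay below all of those 16 arrays for 12 of 76 members and within their range for the other 64. The reference RNA had the highest member mean, 12.66, and lay above all 16 for 33 of 76 members. Both are single arrays and carry no test.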

How the data were processed

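Biotin-labelled RNA, amplified in 2 cycles before labelling per the labels' protocols, was read on 18 one-colour Affymetrix arrays. The deposited values are linear signal intensity per probe set from GCOS, per the submitters' processing notes; every array has the same trimmed mean of 500, and the other steps are not given in the sources used here. Values were taken as log2(intensity + 32). Of 45101 probe sets, 64 control sets were left out, 34945 had 1 symbol, 932 several and 9160 none, and sets with several symbols were not used. Each gene took its brightest probe set over the 17 sorted arrays, and the lowest 40% of genes were removed. For the chosen sets, 19 of 83 members have a suffix (_s or _x) that allows related transcripts, pseudogenes included.

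limma 3.58.1 in R 4.3.3 (lmFit, eBayes with an intensity trend) was fitted to all 10916 genes with Benjamini-Hochberg adjustment at 0.05. Populations were fitted over the 12 tumor arrays, and CD29H CD24P against CD29P CD24H over the 4 normal epithelial arrays. Tumor against normal was fitted on 3 tumor and 2 preparation means. The scripts were tested on simulated data. Numbers pair the tumor arrays, since a number names the tumor: after subtraction of the population mean, arrays correlated at 0.389 to 0.727 within and −0.462 to −0.0441 between tumors. Each mean is over 3 tumors, so positive values within tumors force negative ones between them, which add no separate information. For normal arrays of the same preparation the correlation was 0.0623. The highest correlation of any pair of arrays was 0.980, and no array was a copy.

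Named are members past the threshold, up to 10 per direction by size, or the 5 with the smallest p, the 5 of largest and smallest SD, listed paralogs, and up to 4 of each other list by p. Members and lists were chosen with earlier results of these data known. Alternatives covered the offset, scaling, filter, probe set choice, intensity trend, block, samples fitted, actin ratio and left-out samples.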

Additional observations from a re-analysis of the deposited data

Results flagged for a closer look

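In tumor cells the CD24 difference of 3 ATP synthase genes differed between the CD29 gates when the tumor was a block in the model. The interaction (CD24 high minus low in CD29 high cells, minus the same in CD29 low cells, log2 of signal plus 32) was 3.14 for Atp5l, 2.51 for Atp5e and 1.87 for Atp5g2, with limma adjusted p of 0.0283, 0.0344 and 0.0463, and it was positive in 3 of 3 tumors for each. None of the 3 was called without the block, or without the 2 tumor arrays of lowest actin ratio.

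On the reference RNA array, which enters no comparison, Cox6a2, the heart and muscle form of subunit 6a, had a log2 signal of 9.35, where the 12 tumor and 4 normal epithelial arrays ran from 6.73 to 8.03. Ndufa6 had 12.06 there, where those arrays ran from 8.12 to 10.91.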

How the results depend on the processing

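Counts of called members stayed at 0 under all 30 alternatives in each of the CD29H CD24H comparisons and the CD29 and CD24 averages. The interaction went from 0 to 3 called with the replicate block and to 1 with the block and the actin ratio; the blocked count ran from 0 to 4 when a sample was left out, and the median interaction from 0.26 to 0.49. In normal cells the main count of 6 became 9 with the replicate block and 3 with no filter. It became 0 when all 17 sorted arrays shared a fit and 1 with the actin ratio. When a normal array was left out it ran from 2 to 23. Those fits leave a single array in its population, and their spread comes from the other population alone. The range from 2 to 23 is therefore no measure of how stable the count is. The tumor-to-normal count of 8 became 15 with arrays set to the same median, 0 with the actin ratio and 0 to 15 when a sample was left out. No block was fitted there: tumors and normal preparations share the numbers 1 and 2, but a tumor and a preparation of one number are not named as one source.

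Median member differences moved as follows. Tumor minus normal, −0.60, became −0.81 with arrays set to the same median, −0.47 with no filter, −0.51 with the mean of probe sets, −0.50 with the actin ratio, −0.28 for the 2 tumor arrays of lowest actin ratio alone, and −0.64 to −0.53 when a sample was left out. CD29H CD24H minus CD29L CD24H, 0.06, became 0.20 with arrays set to the same median (all genes 0.12) and −0.063 to 0.21 when a sample was left out. The CD29 average, −0.11, became 0.0068 with arrays set to the same median (all genes 0.11). The medians of the other 4 tumor comparisons moved by less than 1 SD between tumors; with a sample left out they ran from −0.063 to 0.19 for CD29H CD24H against the rest, 0.048 to 0.31 against CD29H CD24L, −0.22 to −0.025 against CD29L CD24L and −0.12 to 0.11 for the CD24 average. The normal median, −0.13, became −0.0094 with the mean of probe sets and −0.19 to −0.028 when an array was left out.

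A sign turned in 3 of 1426 values of named members. Atp5g2 in CD29H CD24H cells against the other populations was −0.0054 with the mean of probe sets. In normal cells Atp5k was −0.49 and Ndufa7 0.75 with the replicate block and the actin ratio together, a fit that leaves no residual degrees of freedom and so no test. Of 378 values of members called in the main comparisons, 94 were no longer called and 26 carry no test; of 1048 values of members not called, 4 were called. The causes were not tested. With 3 tumors and 2 normal preparations, weak signals and small differences could not be resolved.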
